A study of Homo sapiens with 6 samples.

Results

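The replication-dependent histone genes encode the H1, H2A, H2B, H3 and H4 proteins that a cell needs in bulk while it copies its DNA. The 45 genes described here were those rows of the deposited expression table whose symbol carries the prefix HIST1, HIST2, HIST3 or HIST4 and one of these 5 histone classes. Of 90 such rows, 14 with a pseudogene symbol and 31 with fewer than 60 counts summed over the 6 libraries were dropped, which left 45 of the 58395 genes in the count tables. They comprised 4 H1, 11 H2A, 15 H2B, 7 H3 and 8 H4 genes. By cluster, 36 belonged to HIST1 on chromosome 6, 6 to HIST2 and 2 to HIST3 on chromosome 1, and 1, HIST4H4, lay alone on chromosome 12. All 45 had enough counts to be tested.

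RNA was measured by strand-specific sequencing, after depletion of ribosomal RNA, in 6 clonal lines of HEK293, an established human embryonic kidney line. GST lines 2, 8 and 9 overexpressed glutathione S-transferase, a control protein, and NOCT lines 4, 11 and 12 overexpressed nocturnin lacking residues 2 to 15. Nocturnin is a circadian-regulated protein of the CCR4 family that acts on the cofactors NADP and NADPH. Both proteins carried the tag written 3F in the labels, no line was without a construct, and each line is a single clone, so the clone and the construct vary together in any one line. Replicates are therefore separate clones.

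Histone messenger RNAs of this family differ from nearly all others in ending in a conserved stem-loop in place of a poly(A) tail. The stem-loop binding protein SLBP binds it and, with the U7 small nuclear ribonucleoprotein, guides the cut that forms the end. Transcription of the genes is driven in S phase through NPAT at nuclear histone locus bodies, and the messages are rapidly degraded when DNA synthesis stops. Their level in a growing culture therefore depends on the share of cells in S phase, and in these bulk samples fewer cells in S phase and less histone RNA per cell cannot be told apart.

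The stem-loops of named members are shown because they are the feature that sets these transcripts apart. They were read from GENCODE 29 transcripts (GRCh38) by searching the sense strand for the histone stem-loop pattern (GG, 2 bases of any kind, CTTTT, 1 of any kind, AG, 1 of any kind, GCC), and capitals mark the 16 bases that matched.
HIST1H2BC (chr6:26123467-26123492, minus strand): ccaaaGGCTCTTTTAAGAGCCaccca
HIST1H2BD (chr6:26158582-26158607, plus strand): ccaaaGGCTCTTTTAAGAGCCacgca
HIST1H3H (chr6:27810511-27810536, plus strand): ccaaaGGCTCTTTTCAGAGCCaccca
HIST1H4B (chr6:26026896-26026921, minus strand): ccaatGGCCCTTTTCAGGGCCgccca
HIST4H4 (chr12:14770719-14770744, minus strand): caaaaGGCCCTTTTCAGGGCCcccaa
HIST1H2BN, first site (chr6:27839085-27839110, plus strand): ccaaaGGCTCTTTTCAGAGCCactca
HIST1H2BN, second site (chr6:27865773-27865798, plus strand): acaacGGCTCTTTTCAGAGCCaccta
The motif was found in 21 of 45 members and in 0.0767% of the 58676 annotated genes. All 21 were among the 26 members whose annotation runs past the stop codon, so for the other members the annotation mostly stops before the place where a stem-loop could be read. Annotated transcripts with the motif run on past it, from 1 base in HIST1H2BE to 1917 in HIST3H2BB. Counts were taken per gene, so messages ending at the stem-loop and longer ones were not told apart. Over all histone rows, the most frequent form was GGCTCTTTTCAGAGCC, in 18 genes. HIST1H2BC and HIST1H2BD held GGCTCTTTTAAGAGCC, and the H4 members HIST1H4B and HIST4H4 held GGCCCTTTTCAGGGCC. HIST1H2BN held a loop at each of 2 places. The second lies just past the annotated end of another member, HIST1H2AL (chr6:27865355-27865747), whose exon overlaps that of HIST1H2BN.

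Promoters of 3 members are shown for the contrast between an H2B gene, an H3 gene and an H4 gene. Each is the 250 bases before the annotated start in the RefSeq promoter table (GRCh38.p14), which held 39 of the 45 members. Capitals mark the octamer ATTTGCAT, CCAAT and TATAAA, each searched on both strands; overlapping matches run together.
HIST1H2BC (chr6:26123927-26124176, minus strand): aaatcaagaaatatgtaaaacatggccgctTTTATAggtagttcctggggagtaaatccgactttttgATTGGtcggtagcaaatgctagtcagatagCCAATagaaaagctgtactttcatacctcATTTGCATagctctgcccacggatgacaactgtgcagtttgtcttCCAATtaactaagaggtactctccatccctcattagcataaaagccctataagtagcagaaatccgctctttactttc
HIST1H3F (chr6:26250636-26250885, minus strand): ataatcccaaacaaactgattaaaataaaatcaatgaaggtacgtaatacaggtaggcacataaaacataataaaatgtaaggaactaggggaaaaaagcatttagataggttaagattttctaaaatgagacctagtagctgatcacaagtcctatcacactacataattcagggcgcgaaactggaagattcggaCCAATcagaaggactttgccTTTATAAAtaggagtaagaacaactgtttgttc
HIST4H4 (chr12:14771132-14771381, minus strand): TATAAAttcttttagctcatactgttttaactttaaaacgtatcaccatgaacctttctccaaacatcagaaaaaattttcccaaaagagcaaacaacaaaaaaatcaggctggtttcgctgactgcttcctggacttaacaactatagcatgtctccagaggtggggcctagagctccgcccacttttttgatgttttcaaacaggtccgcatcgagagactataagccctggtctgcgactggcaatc
Counted over the table's whole window, 250 bases before to 50 after the start, the octamer was found in 10 of 14 H2B and 7 of 10 H2A promoters. It was found in none of the 4 H1, 5 H3 and 6 H4 promoters, against 1.77% of all 35116 promoters in the table. The octamers of HIST1H2AC, HIST1H2AE, HIST1H2AG and HIST2H2AC are also those of HIST1H2BC, HIST1H2BG, HIST1H2BJ and HIST2H2BE, read on the other strand. Each such site was therefore counted in both classes. It starts 130 bases before the HIST1H2AC start and 123 before that of HIST1H2BC. In the other pairs it starts 192 to 208 bases before the H2A start and 46 to 48 before the H2B start. CCAAT was in 34 of the 39 members' promoters, against 34.6% of all, and in 1 of the 6 H4 promoters. TATAAA was in 26 of the 39, against 11.5% of all. These are matches of letters in a window and were not tied to any level.

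The 6 libraries held 19729745 to 24422406 gene counts, of which the 45 members took 0.415% to 0.548%. The construct rows matched the labels in every line, with 46 to 88 counts of the GST construct in GST lines against 0 or 1 in NOCT lines, and 46 to 82 counts of the NOCT construct in NOCT lines against 3 to 7. Among HEK293 markers, KRT8, KRT18, VIM and LIN28B had 1272 or more counts in every line. PAX2, a kidney developmental factor, had 83 to 108 counts in GST lines and 19 to 29 in NOCT lines (edgeR adjusted p 0.0567), and SALL4 had 3 to 25; the part of these differences in the histone values was not tested. Markers of immune, endothelial, muscle and hepatocyte cells were at or near 0, with 36 counts of VWF in NOCT line 4 the highest single value.

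Near-identical copies set a limit on what the count tables show of this family. Reads without a unique alignment, 13.3% to 14.6% of each file, were not assigned to genes. The paired copies HIST2H2AA3 and HIST2H2AA4, HIST2H3A and HIST2H3C, HIST2H4A and HIST2H4B, and HIST1H4J and HIST1H4K share 81.2% to 100% of their 50-base words and held 0 to 24 counts each. HIST1H2AD and HIST1H3D were at 0 counts, which allows up to 3, and 98.0% and 100% of their exons are overlapped by the same-strand gene AL031777.3. HIST1H1B, which encodes a linker histone and whose words are all its own, held 1 count over the 6 libraries. Just outside the threshold of 60 were HIST1H1A with 57 counts, HIST1H2BB with 51 and HIST3H2BA with 45. Just inside it were HIST1H4I with 105, HIST1H2BI with 139 and HIST1H1T with 187. HIST2H2BA is annotated as a transcribed pseudogene but its symbol kept it in.

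Levels spanned more than 3 orders of magnitude on the TPM scale, which divides counts by gene length and depth. HIST1H2BK was highest with a mean of 2441 TPM over the 6 lines, followed by HIST2H2AC with 2360, HIST1H1E with 2084, HIST1H3B with 1947 and HIST1H1C with 1528. HIST1H2BE and HIST1H4I were lowest, each below 2 TPM. Only 25.9% of the 50-base words of HIST1H2BK and 69.5% of those of HIST2H2AC are found in no other gene's transcripts, so their levels are uncertain and may be too low. The TPM of a member also depends on its annotated length: HIST1H2BN, at 23.3 TPM, has 5477 bases of annotated exon, against 393 for HIST1H2AL. In CPM (counts scaled to a common, TMM-adjusted library size), H2B members summed to 1734 ± 125 in GST lines (SD, n = 3), H2A to 1271 ± 111, H1 to 994 ± 59.1, H3 to 534 ± 43.9 and H4 to 516 ± 34.1.

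The comparison of NOCT with GST lines asks how RNA levels differ between cells that carry this form of nocturnin and cells that carry the control protein. Tested with edgeR (quasi-likelihood fit, Benjamini-Hochberg over the 17261 genes tested), no histone gene reached an adjusted p under 0.05. That threshold was passed by 0.0579% of all genes. Limma voom called no member either, and DESeq2 called 1, against 3.41% of all genes. The median log2 fold change (NOCT minus GST) of the 45 members was -0.11, beside 0.0046 over all genes tested. Values lay below 0 for 30 members and above for 15, where 49.3% of all genes lay below 0. At an unadjusted p under 0.05 there were 13 members (13.9% of all genes), 10 on the lower side (6.52% of all genes) and 3 on the higher side (7.38% of all genes). The 3 NOCT lines all lay below the 3 GST lines for 11 members, where 9.54% of all genes did, and all above for 4, where 10.5% did. When libraries were scaled by their spike-in totals instead, the median over all genes moved to 0.15, that of the members to 0.034, and 20 members lay below 0. The RNA mass and the spike-in volume were the same for every line, so this scaling does not give RNA per cell.

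**Figure D1:**
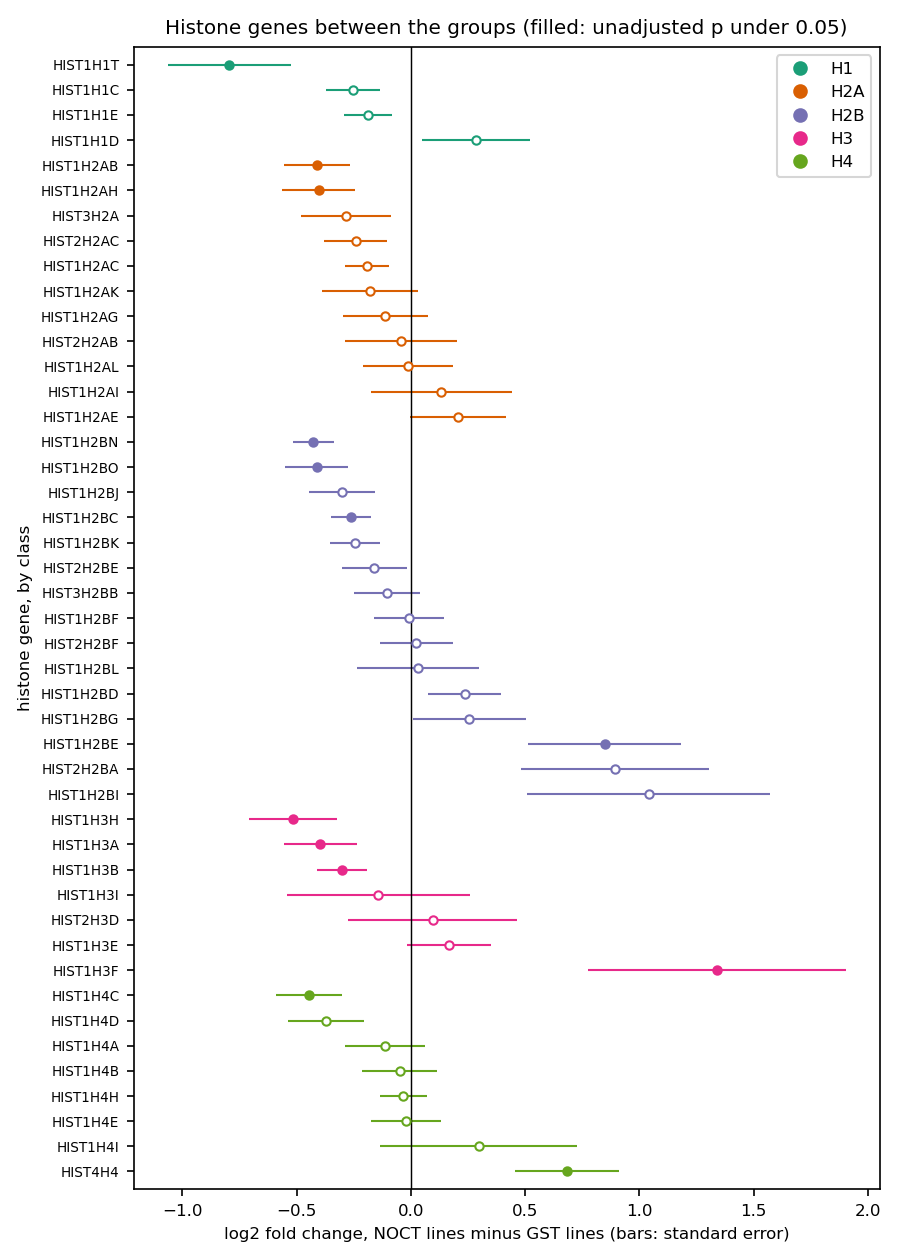
Log2 fold change (NOCT lines minus GST lines) of each of the 45 histone genes, grouped by class, with its standard error as a bar; filled points have an unadjusted edgeR p under 0.05. Most points lie left of 0, and HIST1H3F at 1.34 with a wide bar lies farthest right.

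The spread between lines of a group was as wide as the difference between the groups. Summed over all members, GST lines 2, 8 and 9 held 4877, 4804 and 5468 CPM, and NOCT lines 4, 11 and 12 held 5263, 4096 and 4311 CPM. NOCT lines 11 and 12 were the lowest, while NOCT line 4 lay above GST lines 2 and 8, so the groups overlapped. The group sums were 5049 ± 364 and 4557 ± 621 CPM (SD, n = 3 each), a log2 ratio of -0.15. The members' median deviation from the GST mean (log2 CPM) was -0.31 in NOCT line 11 and -0.23 in NOCT line 12, but 0.11 in NOCT line 4. In the GST lines it was -0.027, -0.084 and 0.10 for lines 2, 8 and 9. NOCT line 11 was the lowest line for 21 members (46.7%), NOCT line 12 for 12 (26.7%) and GST line 8 for 11 (24.4%), whereas GST line 2 and NOCT line 4 were lowest for none. Over all genes tested, these lines were lowest for 15.3%, 17.9%, 15.6%, 15.4% and 21.1%, in that order. GST line 9 and NOCT line 4 were the highest lines, for 18 (40.0%) and 16 (35.6%) members, against 13.1% and 21.5% of all genes. Without NOCT line 11 the members' median was 0.0030, and without NOCT line 4 it was -0.23.

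**Figure D2:**
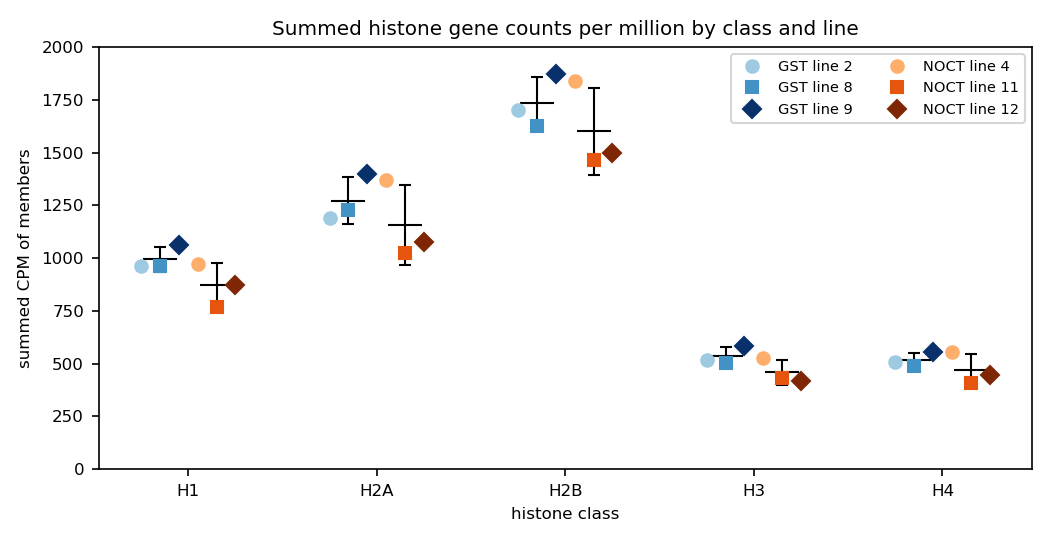
Summed CPM of the members of each histone class in each line; points are lines, and bars give the mean and SD of the 3 lines of each group. In every class the GST and NOCT points overlap, with NOCT lines 11 and 12 below NOCT line 4.

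Linker histones of class H1 bind the DNA between nucleosomes. Over the 4 H1 members the median was -0.22, and 3 of them lay below 0. HIST1H1E had 563, 560 and 625 CPM in GST lines 2, 8 and 9 and 570, 455 and 510 CPM in NOCT lines 4, 11 and 12. The lowest values were in NOCT lines 11 and 12, but NOCT line 4 lay among the GST lines (log2 fold change -0.19, SE 0.11, edgeR adjusted p 0.477). HIST1H1C followed it closely, with 343, 373 and 399 CPM in GST lines and 350, 269 and 316 CPM in NOCT lines. Its groups overlapped through NOCT line 4 (log2 fold change -0.25, SE 0.12, edgeR adjusted p 0.383). HIST1H1D had 52.6, 25.8 and 37.4 CPM in GST lines and 53.5, 41.4 and 45.9 in NOCT lines. Here GST line 8 was the low one, and the log2 fold change was 0.28 (SE 0.24, edgeR adjusted p 0.627). HIST1H1T encodes the H1 form known from testis, and it had only 2.11, 1.77 and 1.77 CPM in GST lines and 1.10, 0.897 and 1.26 CPM in NOCT lines. The groups did not overlap, at a level close to the detection limit (log2 fold change -0.79, SE 0.27, edgeR adjusted p 0.26).

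H2A and H2B form the dimers that flank the H3-H4 core of the nucleosome. Among the 11 H2A members, 9 had a log2 fold change below 0 and the median was -0.18. HIST2H2AC had 301, 344 and 397 CPM in GST lines 2, 8 and 9 and 317, 247 and 318 CPM in NOCT lines 4, 11 and 12. NOCT line 11 stood below all others, while lines 4 and 12 lay within the GST range (log2 fold change -0.24, SE 0.14, edgeR adjusted p 0.48). HIST1H2AH had 121, 155 and 151 CPM against 121, 83.7 and 118 CPM. GST line 2 and NOCT line 4 met in the middle (log2 fold change -0.40, SE 0.16, edgeR adjusted p 0.32). HIST1H2AB had 34.7, 39.8 and 38.8 CPM in GST lines and 34.1, 26.0 and 25 CPM in NOCT lines. Its groups did not overlap, by a narrow margin at NOCT line 4 (log2 fold change -0.41, SE 0.14, edgeR adjusted p 0.268). HIST1H2AL, another abundant H2A gene, did not separate the groups at all: 126, 91.9 and 141 CPM stood against 136, 129 and 89.9 CPM, with low values in GST line 8 and NOCT line 12. Of the HIST3 pair, HIST3H2A had 34.1, 34.2 and 43.4 CPM against 35.1, 21.8 and 35 CPM. NOCT line 11 was again the low line (log2 fold change -0.28, SE 0.20, edgeR adjusted p 0.563).

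The 15 H2B members were split, 8 below 0 and 7 above, with a median of -0.0088. HIST1H2BN had the smallest p of all members. Its level was 49.2, 51.8 and 51.9 CPM in GST lines 2, 8 and 9 and 39.0, 38.3 and 36.5 CPM in NOCT lines 4, 11 and 12. The lines of each group lay close together (51.0 ± 1.54 against 37.9 ± 1.30 CPM, SD, n = 3 each), and the groups did not overlap. Its log2 fold change of -0.43 had an SE of 0.091 (edgeR adjusted p 0.138). DESeq2 on the same counts gave HIST1H2BN an adjusted p of 0.0111, the one member it called, where it called 3.41% of all genes. Over all alternatives the adjusted p of HIST1H2BN ranged from 0.0111 to 0.57. In the authors' deposited table it was likewise the one member of 45 with an adjusted p under 0.05 (shrunken log2 fold change -0.40, adjusted p 0.0327), where 2.87% of all rows passed.

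The NOCT lines also lay wholly below the GST lines for HIST1H2BC, HIST1H2BO and HIST1H2BK. HIST1H2BC had 287, 287 and 304 CPM in GST lines and 263, 233 and 236 CPM in NOCT lines (log2 fold change -0.26, SE 0.088, edgeR adjusted p 0.254). HIST1H2BO had 45.2, 54.0 and 61.2 CPM against 44.7, 39.3 and 36.6 CPM, where GST line 2 and NOCT line 4 nearly touched (log2 fold change -0.41, SE 0.14, edgeR adjusted p 0.252). HIST1H2BK, the member with the highest TPM, had 344, 353 and 357 CPM against 340, 282 and 266 CPM. NOCT line 4 lay just under the GST lines and the other NOCT lines well under (log2 fold change -0.24, SE 0.11, edgeR adjusted p 0.366).

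HIST1H2BD leaned the other way, with 189, 132 and 185 CPM in GST lines and 227, 172 and 197 CPM in NOCT lines. GST line 8 was the low line, and the groups overlapped (log2 fold change 0.24, SE 0.16, edgeR adjusted p 0.551). HIST1H2BI was rare, with 1.32, 0.372 and 0.393 CPM against 1.97, 1.26 and 1.00 CPM, and GST line 2 lay inside the NOCT range (log2 fold change 1.04, SE 0.53, edgeR adjusted p 0.427). HIST2H2BA, the annotated pseudogene, had 3.96, 1.2 and 2.95 CPM against 4.01, 4.89 and 6.08 CPM. Its groups barely separated at GST line 2 and NOCT line 4 (log2 fold change 0.89, SE 0.41, edgeR adjusted p 0.381), and only 26.4% of its words are its own. HIST1H2BE, named after its values were seen, had 1.11, 1.02 and 1.28 CPM against 2.79, 2.02 and 1.31 CPM, and it completed the 3 members on the higher side at an unadjusted p under 0.05 (log2 fold change 0.85, SE 0.34, edgeR adjusted p 0.318).

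The core histone H3 carries much of the lysine methylation and acetylation that marks chromatin. Its 7 members had a median of -0.14, with 4 below 0 and 3 above. HIST1H3B, the H3 member with the highest TPM, had 275, 309 and 340 CPM in GST lines 2, 8 and 9 and 268, 227 and 254 CPM in NOCT lines 4, 11 and 12. Every NOCT line lay below every GST line, though the gap between GST line 2 and NOCT line 4 was small (log2 fold change -0.30, SE 0.11, edgeR adjusted p 0.283). HIST1H3H had 106, 111 and 116 CPM against 97.8, 81.7 and 53.9 CPM. The GST lines were tight and the NOCT lines spread below them, lowest in line 12 (log2 fold change -0.52, SE 0.19, edgeR adjusted p 0.29). HIST1H3I had 42.6, 24.1 and 41.5 CPM against 49.7, 33.4 and 14.7 CPM, with low values in GST line 8 and NOCT line 12 and a wide overlap (log2 fold change -0.14, SE 0.40, edgeR adjusted p 0.901).

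HIST1H3F varied most of all members, 13.4-fold between its lowest and highest line. It had 28.4, 3.58 and 16 CPM in GST lines and 48.1, 37.1 and 35.8 CPM in NOCT lines. The groups did not overlap, but the GST lines were far apart (16 ± 12.4 against 40.3 ± 6.77 CPM, SD, n = 3 each). Its log2 fold change of 1.34 had an SE of 0.56 (edgeR adjusted p 0.343). Without GST line 8 it was 0.85, and without GST line 2 it was 2.04. The authors' deposited table gave HIST1H3F a shrunken log2 fold change of 0.36 (adjusted p 0.465).

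H4 pairs with H3 in the nucleosome core, and all its genes encode nearly the same protein. The 8 members had a median of -0.041, with 6 below 0. HIST1H4C had 79.3, 94.1 and 104 CPM in GST lines 2, 8 and 9 and 70.3, 56.8 and 76.7 CPM in NOCT lines 4, 11 and 12. All NOCT lines lay below the GST lines (log2 fold change -0.45, SE 0.14, edgeR adjusted p 0.241). HIST1H4D, the H4 member with the highest TPM, had 104, 86.9 and 111 CPM against 96.8, 64.2 and 72.7 CPM, and NOCT line 4 lay above GST line 8 (log2 fold change -0.37, SE 0.16, edgeR adjusted p 0.368). HIST1H4B had 45.5, 58.3 and 60.2 CPM against 64.1, 45.0 and 49.4 CPM, and its groups overlapped fully (log2 fold change -0.049, SE 0.16, edgeR adjusted p 0.917).

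HIST4H4, the one member on neither chromosome 6 nor chromosome 1 (chr12:14767999-14771131), lay on the other side. It had 16.3, 10.0 and 15.5 CPM in GST lines and 28.0, 18.6 and 20.4 CPM in NOCT lines. The groups did not overlap, with GST line 8 lowest and NOCT line 4 highest (13.9 ± 3.41 against 22.4 ± 4.97 CPM, SD, n = 3 each). Its log2 fold change of 0.68 had an SE of 0.23 (edgeR adjusted p 0.254).

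**Figure D3:**
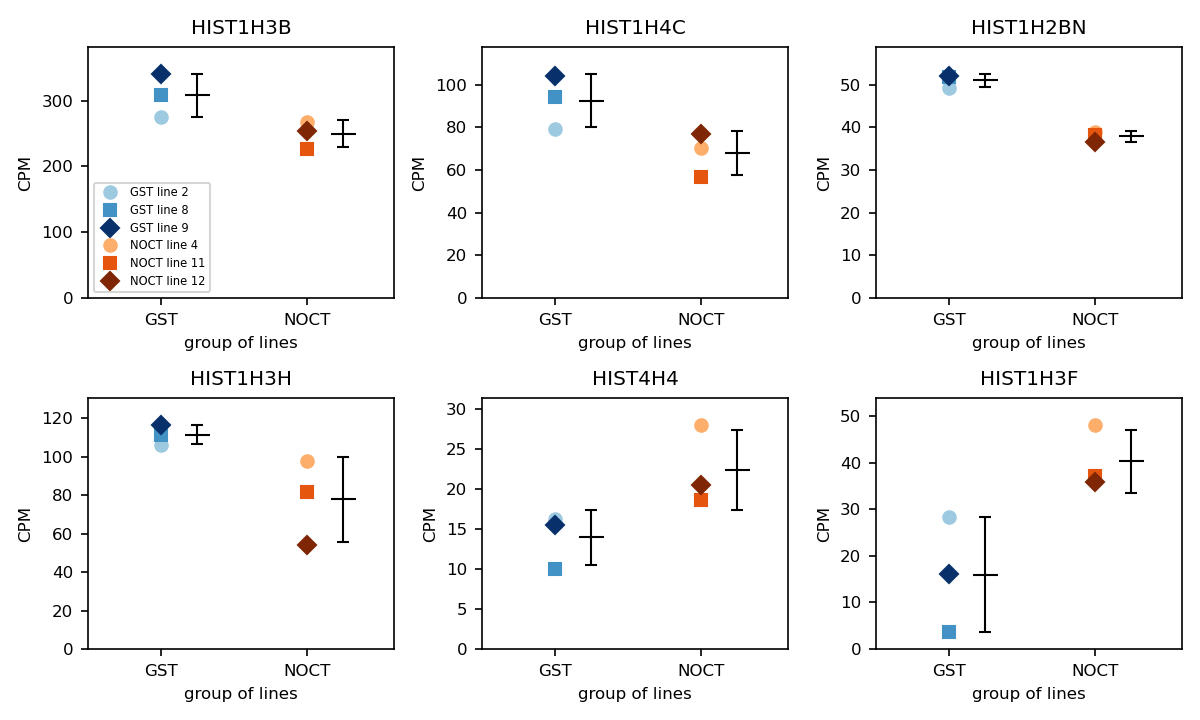
CPM of 6 histone genes in each line, with the mean and SD of the 3 lines of each group drawn beside the points; each panel has its own scale from 0. HIST1H2BN shows tight, separate groups, whereas HIST1H3F ranges from 3.58 to 28.4 among the GST lines alone.

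Members of high and of low TPM differed in how many lay below 0, and this ranking also depends on annotated length. Of the 20 members with the highest TPM, 16 had a log2 fold change below 0 and the median was -0.21. Of the 25 with the lowest TPM, 14 lay below 0 and 11 above, with a median of -0.032. The 6 members with the largest positive values, from HIST1H4I at 0.30 to HIST1H3F at 1.34, all had a mean below 200 TPM. The spread between lines was also wide for the family: the median SD of log2 CPM over the 6 lines was 0.287 for members and 0.226 for the 14931 tested genes whose mean reached 1 CPM.

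By cluster, the median log2 fold change was -0.13 for the 36 HIST1 members, -0.0095 for the 6 HIST2 members and -0.19 for the HIST3 pair. Clusters were read from the symbol, and HIST2H2BA (chr1:121108210-121117257) lies far from the other HIST2 members. The 36 HIST1 members fall into 3 blocks on chromosome 6, separated by gaps of more than 300000 bases. Block 1 holds 23 members (chr6:26020490-26285638), block 2 holds 5 (chr6:27125897-27147515) and block 3 holds 8 (chr6:27807444-27893843), with medians of -0.049, -0.24 and -0.16. NOCT line 12 was lowest for 7 of the 8 members of block 3, where its median deviation was -0.55, against -0.16 in block 1. In block 1, NOCT line 11 was lowest for 13 of 23 members and GST line 8 for 7: HIST1H2BD, HIST1H2BE, HIST1H2BG, HIST1H2AE, HIST1H1D, HIST1H3F and HIST1H2BI, all in the later portion of the block. Block 3 as a whole had 543, 454 and 561 CPM in GST lines and 577, 486 and 325 CPM in NOCT lines, so that NOCT line 12 alone stood apart.

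**Figure D4:**
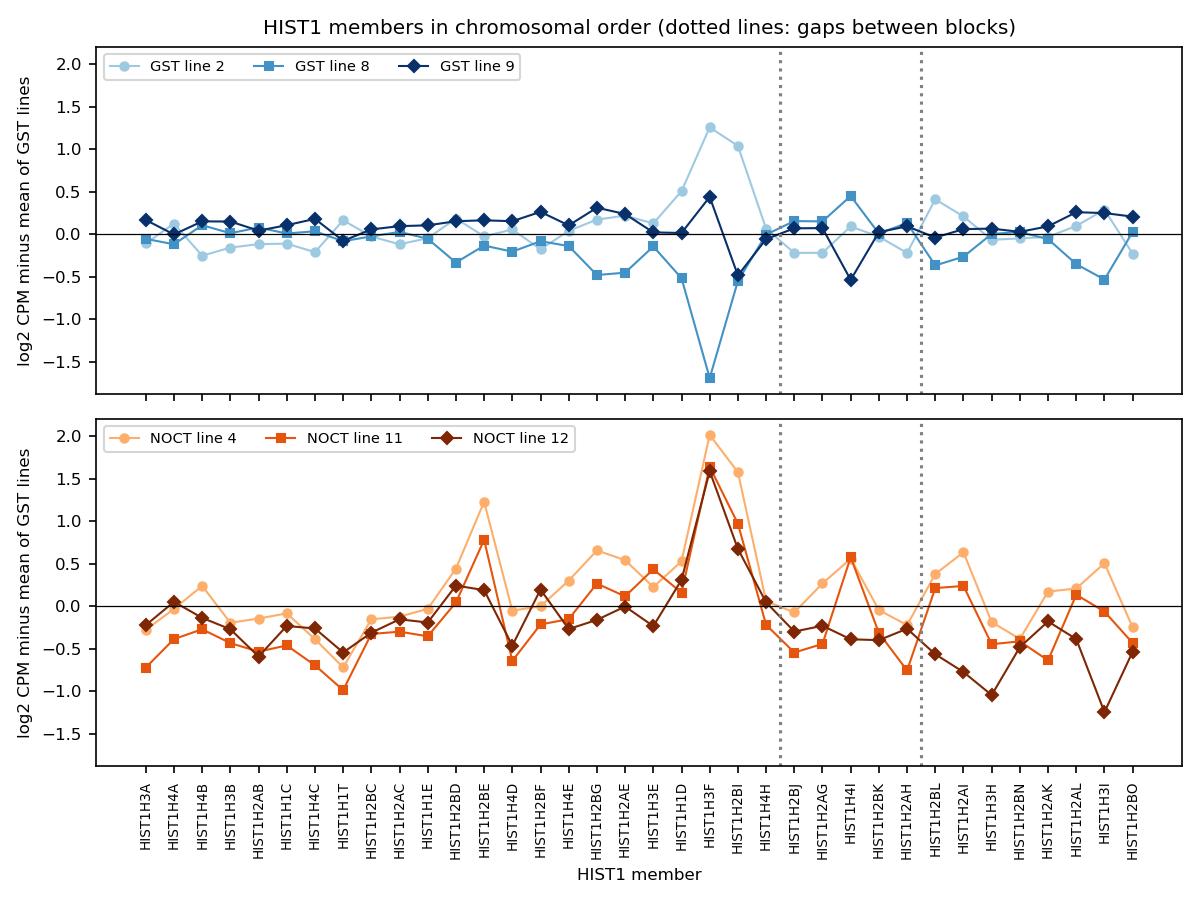
Deviation of log2 CPM from the mean of the GST lines for the 36 HIST1 members in their order along chromosome 6, with GST lines above and NOCT lines below; dotted lines mark the gaps between the 3 blocks. GST line 8 dips at HIST1H3F and its neighbours, and NOCT line 12 is the lowest NOCT line over most of the third block.

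Taken by whole cluster, the surrounding genes that are not of this family gave other values. The 39 tested non-histone genes within 1000000 bases of the HIST1 members centred on a log2 fold change of 0.014 (median), and 18 lay below 0. The HIST1 blocks differed in this. Within 300000 bases, the median was -0.16 for 10 genes around block 1, -0.0041 for 4 around block 2 and 0.18 for 9 around block 3. Around block 1, 8 of the 10 genes lay below 0, and the members of block 1 had a median of -0.049. Around HIST2 the median of 28 genes was 0.16, around HIST3 that of 19 genes was 0.0059, and around HIST4H4 that of 7 genes was 0.089. Those 7 include the variant histone gene H2AFJ, and the median of the other 6 was 0.055. In NOCT line 12 the HIST1 neighbours deviated by a median of -0.0085, while the HIST1 members deviated by -0.25. In NOCT line 11 the values were 0.13 for neighbours and -0.31 for members, and in GST line 9 -0.23 for neighbours and 0.093 for members. Among the HIST1 neighbours, the smallest p values were those of the zinc finger gene ZSCAN12 (log2 fold change 0.58, edgeR adjusted p 0.173) and CARMIL1, a regulator of actin capping (0.33, edgeR adjusted p 0.287).

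Many H2A and H2B genes lie head to head and share the stretch between their starts, and by GENCODE gene starts 7 such pairs had both genes among the members, with 219 to 331 bases between starts. The correlation of log2 CPM over the 6 lines, given as a description of points that share libraries, was 0.71 for HIST1H2AH with HIST1H2BK and 0.97 for HIST1H2AE with HIST1H2BG, the lowest and highest of the 7. The fold changes of partners had the same sign in 7 of 7 pairs. H2A and H2B members that are not partners were not compared in this way, and 30 of all 45 members lay below 0. The part of the shared stretch in these values was not tested. HIST1H2AK and HIST1H2BN overlap in GENCODE and are not among the 7, but by RefSeq they lie head to head with 194 bases between starts. Their correlation was 0.44, below that of every GENCODE pair, and their log2 fold changes were -0.18 and -0.43. HIST1H2AC and HIST1H2BC, which share the promoter stretch printed for HIST1H2BC, stood at -0.19 and -0.26 (r = 0.87). Partners were often unequal on the TPM scale, which depends on annotated length: HIST2H2AC had 2360 TPM and HIST2H2BE 250.4 TPM. Their annotated exons span 390 and 2194 bases, and their counts summed over the 6 libraries were less unequal, 41085 and 24627.

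Genes that make and destroy histone mRNA showed no shared direction. Of 44 such genes, all tested, none passed the edgeR threshold, and 23 lay below 0 and 21 above, with a median of -0.033. At an unadjusted p under 0.05, 5 were lower and 4 higher, against 6.52% and 7.38% of all genes tested. DESeq2 called 0, against 3.41% of all genes called in either direction. SLBP had a log2 fold change of -0.027 (SE 0.11), with 72.9 ± 2.43 CPM in GST lines and 71.6 ± 9.66 CPM in NOCT lines (SD, n = 3 each), and its sign turned, to 0.12, under spike-in scaling. NPAT stood at 0.098, CASP8AP2, another histone locus body protein, at 0.050, the U7 proteins LSM10 and LSM11 at -0.42 (SE 0.22) and 0.0089, and ERI1, an exonuclease that trims the stem-loop end, at 0.091. The smallest p-values belonged to SNRPD3, a core small nuclear ribonucleoprotein subunit (0.34, SE 0.086, edgeR adjusted p 0.189), and ATR, the replication stress kinase (-0.32, SE 0.099, edgeR adjusted p 0.233).

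Most replacement and variant histones are made from polyadenylated messages, and not only in S phase. Of 19 such genes 11 were tested, none passed the edgeR threshold, and the median was -0.012. At an unadjusted p under 0.05, 2 were lower and 2 higher, against 6.52% and 7.38% of all genes tested. DESeq2 called 2, H1FX and H2AFJ, against 3.41% of all genes called in either direction. H1FX, a linker variant, had 60.3, 63.9 and 72.6 CPM in GST lines and 45.3, 44.8 and 49.6 CPM in NOCT lines. All NOCT lines lay below the GST lines (log2 fold change -0.49, SE 0.10, edgeR adjusted p 0.138). H2AFJ, an H2A variant gene that lies beside HIST4H4, had 2.38, 0.325 and 2.56 CPM against 8.02, 7.36 and 4.67 CPM. Its groups did not overlap and, as for HIST4H4, GST line 8 was lowest and NOCT line 4 highest (log2 fold change 1.94, SE 0.58, edgeR adjusted p 0.224). The 22 histone chaperone genes had a median of 0.013 with none past the edgeR threshold. At an unadjusted p under 0.05, 3 were lower and 1 higher, beside the same 6.52% and 7.38% of all genes. DESeq2 called 1, CABIN1, beside the same 3.41%. CABIN1, of the HIRA complex that deposits H3.3, stood at 0.37 (SE 0.080, edgeR adjusted p 0.138), and NAP1L1, an H2A-H2B chaperone, at -0.33 (SE 0.10, edgeR adjusted p 0.233).

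Of 36 S phase genes, all tested, 26 lay above 0 and 10 below, the median log2 fold change was 0.080, and none passed the edgeR threshold. At an unadjusted p under 0.05, 5 were higher and none lower, against 7.38% and 6.52% of all genes tested. DESeq2 called 2 higher, CDC45 and the cyclin gene CCNE2, against 3.41% of all genes called in either direction. Without NOCT line 12, edgeR called TYMS (-1.09, adjusted p 0.0153) and MCM6 (-0.57, adjusted p 0.0385) lower and GINS1 (0.72, adjusted p 0.00789) higher. That fit called 970 of the 17882 genes it tested. TYMS makes thymidylate, and MCM6 and GINS1 encode helicase subunits. CDC45, of the replicative helicase, stood at 0.41 (SE 0.095, edgeR adjusted p 0.161). PCNA, the sliding clamp of DNA polymerase, had 188, 213 and 217 CPM in GST lines and 272, 250.3 and 265 CPM in NOCT lines, so that the groups did not overlap (log2 fold change 0.35, SE 0.092, edgeR adjusted p 0.194). The part of the cell cycle in the level of the histone genes was not tested.

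**Figure D5:**
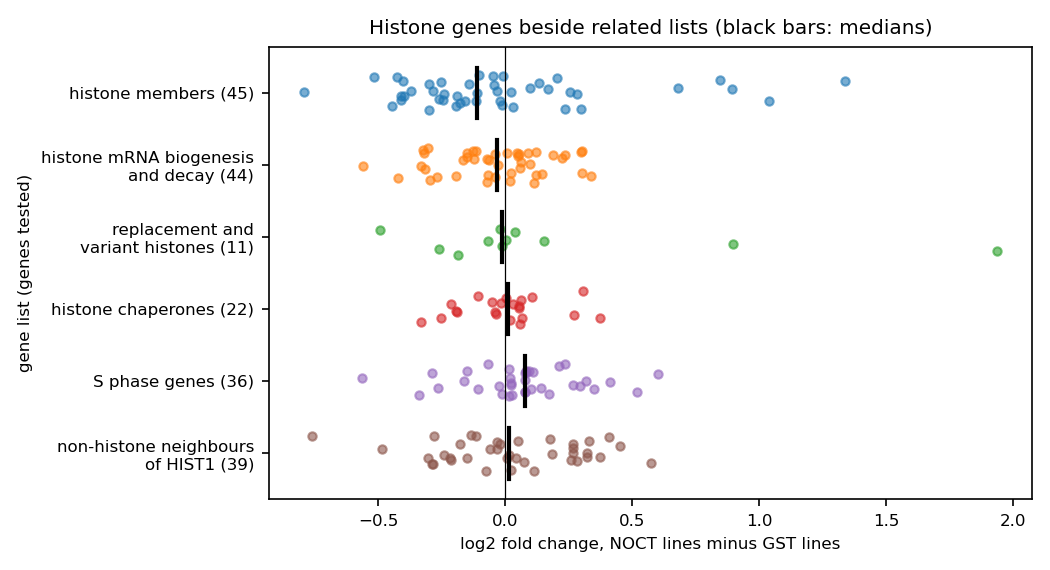
Log2 fold change (NOCT lines minus GST lines) of each gene in the 45 histone members, in 4 related lists and in the non-histone neighbours of HIST1; black bars are medians, and vertical scatter within a row has no meaning. The members' bar lies at -0.11 and that of the S phase genes at 0.080.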

How the data were processed

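Per the submitters' processing notes, reads were trimmed with cutadapt 1.8.1 and Trimmomatic 0.33, aligned with STAR 2.5.2b to GRCh38 and counted with HTSeq 0.6.1p1; the annotation release is not given in the sources used here. The counts the authors deposited are whole reads, and rows that name no gene stayed out of library sizes: reads without a feature were 26.5% to 30.6% of a file. The authors also deposited TPM values, whose ratio to the counts followed the summed exon length of GENCODE 29 within 5% for 45 of 45 members. The authors' deposited DESeq2 table gives a shrunken log2 fold change, its standard error, a p-value and adjusted p-value, a mean normalised signal and a test statistic (a score, unused) per gene; the construct rows gave its direction.

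Counts were tested with edgeR 4.0.16 in R 4.3.3 (filterByExpr, TMM factors from genes alone, quasi-likelihood test, Benjamini-Hochberg adjustment over 17261 genes), which was also tested on simulated data. Standard errors were derived from the F statistic. P-values set the difference between the groups against the spread between clonal lines within a group. Lists are described by counts and medians, without a test. The members and lists were chosen with earlier results of these data known. Named members were, in each class, the 3 with the highest TPM, the 8 with the smallest p, the 3 most extreme in each direction and in spread among those with a mean of 1 CPM, and the highest in HIST2, HIST3 and HIST4; 24 resulted. Named genes of the other lists were 6 histone mRNA factors and the smallest p-values. Alternatives were DESeq2 1.42.0, limma 3.58.1 (voom, and log2(TPM + 1) or log2(TPM + 0.1)), other scalings and filters, and leaving out each line. No per-sample column was left unused. Coordinates are GENCODE 29 on GRCh38.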

Additional observations from a re-analysis of the deposited data

How the results depend on the processing

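No paired analysis was possible because the line numbers of the GST group (2, 8 and 9) and of the NOCT group (4, 11 and 12) are not shared. The count of members past the threshold was 0 with every alternative except DESeq2, which called 1 (HIST1H2BN), and the fit without a filter on low counts, which called 4 (HIST1H3F, HIST1H3H, HIST1H4C and HIST4H4) and 888 genes in all; it ranged from 0 to 0 when each line was left out. Variant histones gave 2 with DESeq2, 3 without the filter and 0 to 1 when leaving out a line. Chaperones gave 1 with DESeq2 and 0 to 2 when leaving out a line, and S phase genes gave 2 with DESeq2 and 2 without the filter, all higher in NOCT lines, and 0 to 3 when leaving out a line, the 3 being TYMS and MCM6, lower, and GINS1, higher. The histone mRNA factors gave 0 in all, 0 to 0 when leaving out a line. Calls when leaving out a line came without NOCT line 12, where 970 genes were called, against 0 without GST line 9.

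Leaving out each line in turn, the median log2 fold change ranged from -0.23 to 0.0030 for all members, -0.31 to -0.14 for H1, -0.35 to -0.085 for H2A, -0.16 to 0.011 for H2B, -0.36 to -0.00725 for H3, -0.19 to 0.043 for H4, -0.25 to -0.069 for HIST1, -0.21 to 0.071 for HIST2, -0.29 to -0.041 for HIST3 and 0.48 to 0.80 for HIST4H4. For the neighbours it ranged from -0.0925 to 0.090 (HIST1), 0.090 to 0.21 (HIST2), -0.076 to 0.030 (HIST3) and 0.0033 to 0.085 (HIST4), and for the log2 ratio of summed CPM from -0.26 to -0.077. With spike-in scaling, which moves the median of all genes to 0.15, the median was -0.074 for H1, 0.018 for HIST1 and, for neighbours, 0.16 (HIST1), 0.31 (HIST2), 0.15 (HIST3) and 0.24 (HIST4). On log2(TPM + 0.1) the neighbours gave 0.24 (HIST2) and 0.094 (HIST3), and on log2(TPM + 1) 0.089 (HIST3); 25 members then lay below 0.

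Of 40 named genes, 6 had another sign in 24 of 560 alternative values. All of these but HIST1H3I lay near 0 in the edgeR fit, and the log2 fold change of HIST1H3I was smaller in size than its SE. HIST1H2AL gave 0.14 with spike-in totals, 0.073 on both TPM scales, and 0.024, 0.12 and 0.15 without GST line 2, GST line 9 and NOCT line 12, its range being -0.18 to 0.15 when leaving out a line. HIST1H3I gave 0.0077 with spike-in totals and -0.59 to 0.20 when leaving out a line, with 0.20 without NOCT line 12. HIST1H4B gave 0.10 with spike-in totals, 0.031 on both TPM scales, and -0.22 to 0.049 when leaving out a line, with 0.024 without GST line 9 and 0.049 without NOCT line 11. SLBP gave 0.12 with spike-in totals, 0.052 on both TPM scales, -0.14 to 0.039 when leaving out a line, and 0.00023, 0.0057 and 0.039 without GST line 9, NOCT line 4 and NOCT line 11. CASP8AP2 gave -0.074 to 0.15 when leaving out a line, with -0.074 without GST line 9 and -0.00071 without NOCT line 12. LSM11 gave -0.00565, -0.011 and -0.0032 without GST line 2, GST line 8 and NOCT line 4, and its range was -0.011 to 0.031. The cause was not tested. Restricting members to those with at least 90% of their words in no other transcript left 37 with a median of -0.11, an alternative chosen after seeing the data, as were the protein-coding members alone, the summed CPM under other scalings and the neighbours' alternatives; the planned search of the genome for such words was not run.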
